A study of Homo sapiens with 16 samples.

Results

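The late enzymes of cholesterol synthesis were followed through 8 genes: CYP51A1, TM7SF2, MSMO1, NSDHL, HSD17B7, C14orf1, EBP and DHCR7. They were chosen by name, for their place in the pathway, with earlier results of these data known. Counts of these genes that rose or fell are thus descriptions and not independent tests. All 8 were found among the 10304 RefSeq transcripts measured. The assay was PRO-seq, in which polymerases caught in the act of transcription are mapped by labelling the RNA they extend in isolated nuclei. The cells were Kasumi-1, an acute myeloid leukaemia line, in which SMARCA5, the motor subunit of ISWI complexes that reposition nucleosomes, carries an FKBP12F36V tag on both alleles. The small molecule dTAG-47 binds that tag and directs the tagged protein to degradation. Tagged cells received the compound at 500 nM and were sampled 2 h (n = 3), 6 h (n = 4) or 24 h (n = 2) later, or were left untreated (0 h, n = 5), so every group carried the tag. The series calls the libraries biological replicates, but does not say whether the tagged line is a single clone or whether each library came from its own culture, so p-values measure the spread between libraries, which may be technical. The 2 samples of the parental line were not analysed here. No untagged cells received the compound, so effects of dTAG-47 itself and of SMARCA5 loss cannot be told apart.

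Cholesterol is made from acetyl-CoA through mevalonate, squalene and lanosterol, and the 8 genes act after lanosterol, where methyl groups are removed and double bonds are moved and reduced. CYP51A1 is the lanosterol demethylase, and TM7SF2 is a sterol reductase that acts on its product. MSMO1 (an oxidase), NSDHL (a dehydrogenase that also decarboxylates) and HSD17B7 (a ketoreductase) remove the remaining methyl pair, and C14orf1, now named ERG28, holds these enzymes together, a role known from yeast. EBP is the sterol isomerase, and DHCR7 reduces 7-dehydrocholesterol in the last step of one branch. When membranes are low in cholesterol, SCAP carries the transcription factor SREBP-2 out of the endoplasmic reticulum, and the processed factor binds sterol regulatory elements, often beside CCAAT boxes bound by NF-Y. INSIG1 holds SCAP back when sterols are plentiful.

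The promoters of all 8 genes were matched by symbol in the RefSeq table of build GRCh38.p14, which spans 250 bases before to 50 bases after each start. The hg19 positions of the measured transcripts were not converted to that build. Of the promoters that hold the motifs, 4 are shown as examples. MSMO1 has a sterol element core with many CCAAT boxes, and TM7SF2 has both motifs close together. EBP has both and is the gene whose promoter reads behaved differently, and NSDHL has CCAAT boxes alone. C14orf1 and HSD17B7, with 3 and 2 CCAAT matches, are not shown. Capitals mark CACNCCA, the core of the sterol regulatory element, and CCAAT, each on either strand (TGGNGTG and ATTGG when reversed), and runs of capitals can join neighbouring matches.
MSMO1 promoter, chr4:165327419-165327718, plus strand: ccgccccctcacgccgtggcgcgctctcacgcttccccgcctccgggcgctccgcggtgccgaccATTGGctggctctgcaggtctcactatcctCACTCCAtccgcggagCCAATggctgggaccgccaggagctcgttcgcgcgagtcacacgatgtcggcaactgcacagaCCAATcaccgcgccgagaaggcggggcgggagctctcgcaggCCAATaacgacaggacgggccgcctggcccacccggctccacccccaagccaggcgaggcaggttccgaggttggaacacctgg
TM7SF2 promoter, chr11:65111622-65111921, plus strand: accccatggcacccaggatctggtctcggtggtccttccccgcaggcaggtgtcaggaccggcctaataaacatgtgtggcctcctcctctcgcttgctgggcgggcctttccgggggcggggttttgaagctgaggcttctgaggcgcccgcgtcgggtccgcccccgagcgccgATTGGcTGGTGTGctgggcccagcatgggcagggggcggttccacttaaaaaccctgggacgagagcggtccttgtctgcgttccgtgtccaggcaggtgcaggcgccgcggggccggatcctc
EBP promoter, chrX:48521558-48521857, plus strand: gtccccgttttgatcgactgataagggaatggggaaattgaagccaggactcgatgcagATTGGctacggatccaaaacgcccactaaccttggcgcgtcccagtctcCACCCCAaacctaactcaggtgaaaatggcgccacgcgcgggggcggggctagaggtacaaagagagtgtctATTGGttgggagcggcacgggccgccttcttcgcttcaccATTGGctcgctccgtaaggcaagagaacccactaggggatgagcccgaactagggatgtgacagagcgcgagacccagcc
NSDHL promoter, chrX:152830813-152831112, plus strand: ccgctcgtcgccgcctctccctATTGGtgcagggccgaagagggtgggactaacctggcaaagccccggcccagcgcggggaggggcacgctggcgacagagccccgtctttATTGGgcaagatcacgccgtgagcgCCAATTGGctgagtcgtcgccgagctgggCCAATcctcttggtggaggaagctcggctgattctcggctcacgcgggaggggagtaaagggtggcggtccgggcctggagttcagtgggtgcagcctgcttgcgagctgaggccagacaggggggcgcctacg
The CACNCCA core lay in 3 of the 8 promoters, MSMO1, TM7SF2 and EBP, and in 17.6% of 35116 promoters in the table. CCAAT lay in 6 of the 8, against 34.6% of all promoters, and was most frequent in NSDHL with 5 matches and MSMO1 with 4. The Sp1 box GGGCGG lay in 6 of the 8, against 45% of all promoters, and the E-box CACGTG in 0, against 7.26%. CYP51A1 and DHCR7 had neither CACNCCA nor CCAAT in this window. In TM7SF2 the CACNCCA match began at base -68 and CCAAT at base -74 relative to the start, with 1 base between them. The 35116 promoters include genes not measured here, so their shares are not those of the measured transcripts. These matches are letters in a window and were not tested for binding.

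Each library held 11182894 to 34209362 reads in gene bodies and 1667950 to 7171601 near promoters, and the 8 genes held 57 to 5832 gene-body and 9 to 2233 promoter-proximal reads per library. Each count column bears 1 of 3 codes, called runs 1 to 3 here, and no label or header explains the code. Run 1 held a single 2 h library and untreated A and B, run 2 held A and B at 0, 2, 6 and 24 h, and run 3 held 6 h A and B and a single untreated library. The untreated libraries of run 1 stood apart in a principal component analysis of gene-body levels (first component with 46.8% of variance, scores of -46.6 and -37.1, against -10.1 to 28.4 for the others), so counts of called genes are also given without run 1. The target SMARCA5 did not pass the test at 2 h (log2 change -0.27 ± 0.12, SE, adjusted p = 0.0779), 6 h or 24 h, and since the tag acts on the protein its transcript does not report the degradation. Of 22 marker genes, 10 were in the tables, among them KIT (3799 ± 532 CPM), RUNX1 (3610 ± 173) and MPO (980 ± 115) in untreated cells (SD, n = 5), genes that myeloid progenitors express, while CEBPA, a myeloid factor, was at 5.44 ± 1.25 and KLF1, a red-cell factor, at 19.8 ± 9.75. These gene-body levels are not divided by gene length, so they cannot be compared between genes. The other 12, among them the T-cell marker CD3E and the red-cell marker HBB but also monocyte markers, were not analysed here.

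Before treatment the 8 genes differed widely in polymerase density. Levels are CPM, read counts divided by library size after scaling with edgeR's TMM factors, and density is gene-body CPM per kilobase of the listed transcript span. TM7SF2 was densest with 11.2 ± 3.29 CPM per kilobase (SD, n = 5), rank 275 of 10304 transcripts, followed by DHCR7 with 2.97 ± 0.80. EBP (1.68 ± 0.23), MSMO1 (1.55 ± 0.30) and CYP51A1 (1.35 ± 0.11) formed a middle group whose neighbours in this order overlapped between libraries. NSDHL (0.81 ± 0.082) and C14orf1 (0.73 ± 0.23) overlapped as well, and HSD17B7 was sparsest with 0.33 ± 0.059, rank 10171. The other neighbours in the order, TM7SF2 and DHCR7, DHCR7 and EBP, CYP51A1 and NSDHL, and C14orf1 and HSD17B7, did not overlap in any untreated library.

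After 2 h with dTAG-47, transcription of all 8 late sterol genes rose. At an adjusted p under 0.05, 8 of 8 rose in gene bodies, where 19.7% of 10304 transcripts rose and 38.6% were called in either direction. Their log2 changes against 0 h were 0.76 to 1.95 with a median of 1.31, beside a median of 0.014 over all transcripts, and each lay above 96.7% or more of them. Changes are from edgeR's quasi-likelihood model with a term for time and a term for run, with Benjamini-Hochberg adjustment over all transcripts. With run 1 left out 8 of 8 rose, where 11.5% of transcripts did, and in run 2 alone 8 of 8 rose, where 18.2% did.

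CYP51A1 (NM_001146152, hg19 chromosome 7, 91741463 to 91764059) opens this stretch of the pathway. It held 59.6 and 55.8 gene-body CPM at 2 h in run 2 and 104 in run 1, against 29.3 and 28.5 untreated in run 2, 33.3 and 28.7 in run 1 and 33.3 in run 3. Every 2 h library stood above every untreated library, with the run 1 library highest. The change was 1.41 ± 0.15 (SE), or 2.65-fold, at an adjusted p of 4.96e-05.

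TM7SF2 (NM_003273, chromosome 11, 64879341 to 64883707), the reductase that follows, rose least. It held 62.6 and 70.0 CPM at 2 h in run 2 and 80.6 in run 1, against 51.6 and 46.5 untreated in run 2, 33.0 and 41.6 in run 1 and 71.4 in run 3. It was the only one of the 8 genes whose 2 h and untreated libraries overlapped, through the untreated library of run 3, while within runs 1 and 2 each 2 h library was above the untreated ones. The change was 0.76 ± 0.13 (adjusted p = 0.000994), and it was not called without the run term (adjusted p = 0.167).

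**Figure D1:**
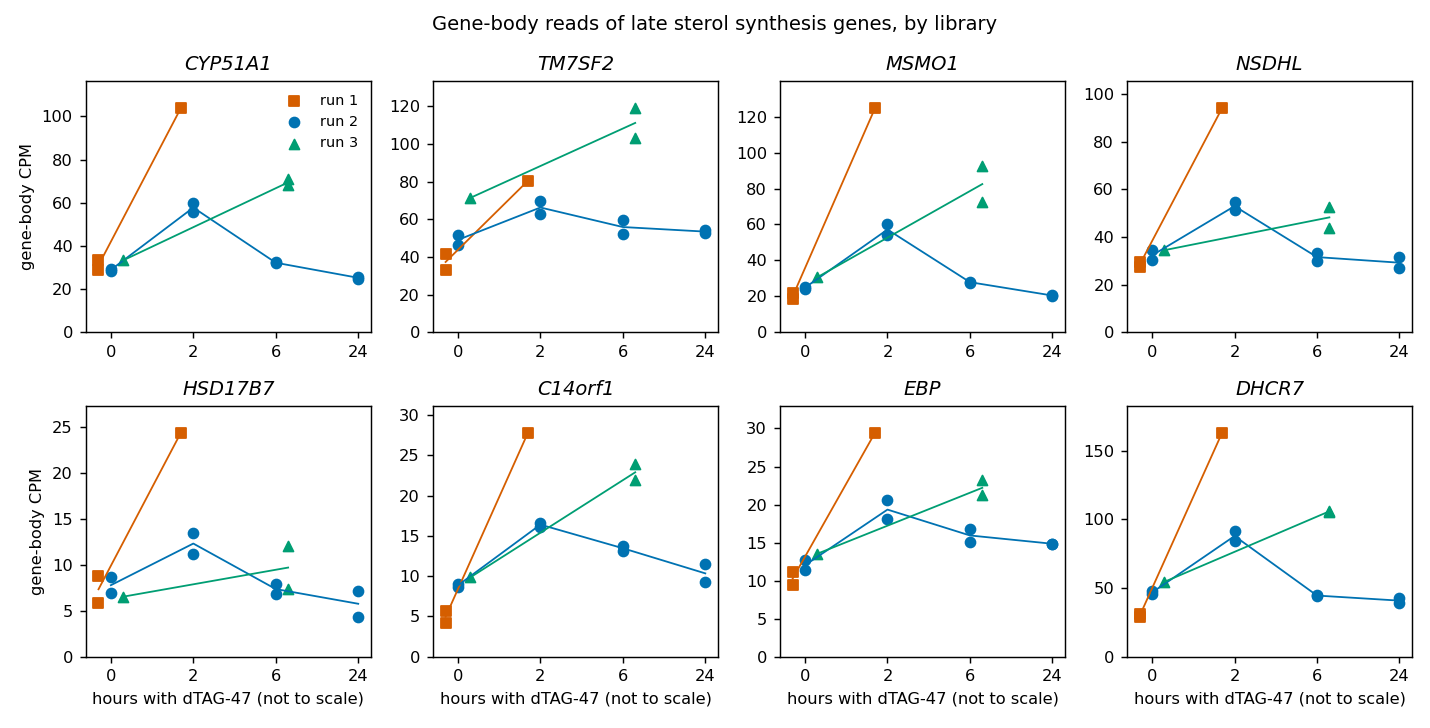
Gene-body CPM (vertical axis, from 0) of the 8 late sterol genes in each of 14 libraries against hours with dTAG-47 (not to scale), with points and lines for run means coloured by run. The 2 h libraries were above the untreated libraries of their own run in all 8 genes, and the run 2 values at 24 h lay near or below those at 0 h in CYP51A1, MSMO1 and DHCR7.

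Of the enzymes that remove the methyl pair, MSMO1 (NM_006745, chromosome 4, 166248818 to 166264314) had the largest change among the 8. It held 60.4 and 54.0 CPM at 2 h in run 2 and 125 in run 1, against 24.2 and 25.4 untreated in run 2, 21.7 and 18.2 in run 1 and 30.6 in run 3. No 2 h library came near the untreated range, and run 1 was again highest. Its change of 1.95 ± 0.24 (3.86-fold, adjusted p = 0.000118) was exceeded by 5 of 10304 transcripts.

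NSDHL (NM_015922, chromosome X, 151999511 to 152037907) held 54.4 and 51.3 CPM at 2 h in run 2 and 94.1 in run 1, against 34.4 and 30.1 untreated in run 2, 29.4 and 27.3 in run 1 and 34.4 in run 3. The groups did not overlap, and the change was 1.19 ± 0.16 (adjusted p = 0.000229). HSD17B7 (NM_016371, chromosome 1, 162760496 to 162782608) was the least covered gene, with 11.1 and 13.5 CPM at 2 h in run 2 and 24.4 in run 1, against 6.94 and 8.66 untreated in run 2, 8.81 and 5.90 in run 1 and 6.55 in run 3. Its groups did not overlap either. The change of 1.21 ± 0.24 (adjusted p = 0.00238) fell to 0.81 without the 2 h library of run 1, where it was no longer called (adjusted p = 0.0622). RefSeq lists the pseudogenes HSD17B7P1 and HSD17B7P2, so the HSD17B7 counts are uncertain where reads could be shared.

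C14orf1 (NM_007176, chromosome 14, 76117233 to 76127538), the scaffold of this complex, was sparsely covered but moved strongly. It held 16.6 and 16.1 CPM at 2 h in run 2 and 27.8 in run 1, against 9.06 and 8.66 untreated in run 2, 5.72 and 4.21 in run 1 and 9.85 in run 3. The lowest treated library was well above the highest untreated one, and the untreated libraries of run 1 were the lowest of all. The change was 1.64 ± 0.24 (3.12-fold, adjusted p = 0.000341).

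The last enzymes of the pathway moved with the rest. EBP (NM_006579, chromosome X, 48380164 to 48387104) held 18.0 and 20.6 CPM at 2 h in run 2 and 29.5 in run 1, against 12.7 and 11.4 untreated in run 2, 9.45 and 11.1 in run 1 and 13.5 in run 3, a change of 1.07 ± 0.15 (adjusted p = 0.000232). DHCR7 (NM_001163817, chromosome 11, 71145457 to 71159477) held 84.3 and 91.6 CPM at 2 h in run 2 and 163 in run 1, against 47.8 and 46.0 untreated in run 2, 31.2 and 28.7 in run 1 and 54.6 in run 3, a change of 1.65 ± 0.23 (3.14-fold, adjusted p = 0.000239). In neither gene did the groups overlap. In all, every 2 h library stood above every untreated one in 7 of the 8 genes, as in 11.6% of all transcripts, and within run 1 and within run 2 this held for 8 of 8, where 43.5% and 34.5% of transcripts did so. The authors' deposited table, from DESeq2, also gave 8 of 8 as higher at 2 h, where 19.8% of its transcripts were, with log2 changes of 0.75 (TM7SF2) to 1.90 (MSMO1).

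**Figure D2:**
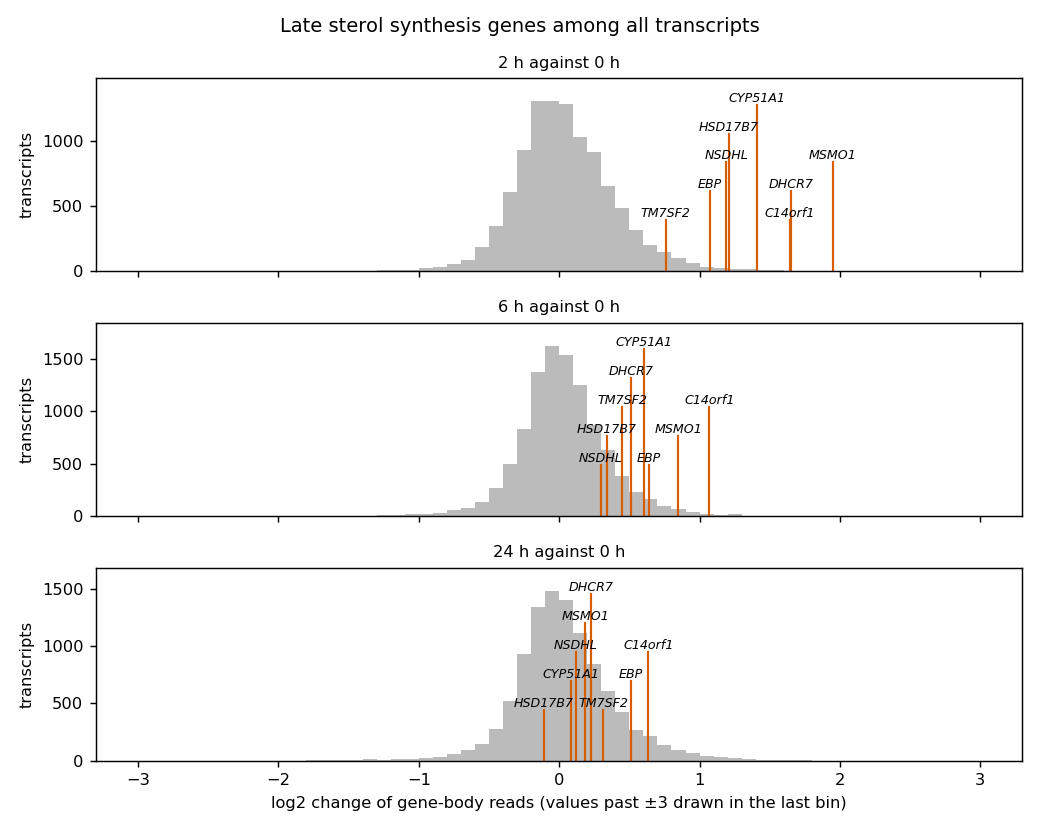
Number of transcripts (vertical axis) by log2 change of gene-body reads against 0 h (horizontal axis, bins of 0.1 with values past ±3 in the last bin) at 2, 6 and 24 h, with a line for each late sterol gene. At 2 h the 8 lines stand from 0.76 to 1.95, right of most transcripts, at 6 h from 0.30 to 1.07, and at 24 h from -0.11 to 0.64. At 24 h C14orf1 lay above 94.6% and EBP above 91.5% of transcripts.

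The size of the 2 h rise differed between the runs. Within run 1 the 8 genes changed by 1.11 (TM7SF2) to 2.65 (MSMO1) with a median of 1.74, and 8 of 8 rose, where 27% of all transcripts rose. Within run 2 they changed by 0.43 (TM7SF2) to 1.21 (MSMO1) with a median of 0.80, and 7 of 8 rose, where 8.8% of all transcripts did. HSD17B7 was not called there (0.68 ± 0.29, adjusted p = 0.116). The run 1 change was larger in all 8 genes, and the difference itself passed the test in 7, where 13.8% of transcripts were larger and 14.5% smaller in run 1. The 2 h value of run 1 is a single library, so the test assumes that it varies like the other groups. The largest differences were 1.60 ± 0.24 for C14orf1, 1.54 ± 0.12 for DHCR7 and 1.44 ± 0.19 for MSMO1, and that of HSD17B7 (1.06 ± 0.41, adjusted p = 0.0712) was not called. With each of 12 libraries left out in turn, 5 to 8 of the differences were called, but the single 2 h library of run 1 could not be left out.

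Other values moved with this difference. Run 1 has a single 2 h library, its untreated libraries stood apart on the first principal component, and the SMARCA5 gene body fell there (-0.59 ± 0.14, adjusted p = 0.00386) with no call in run 2 (-0.041 ± 0.12). The promoter-proximal percentage of all reads was 17.3% in the 2 h library of run 1, against 9.55% and 12.6% in its untreated libraries, and 11.3% and 15.5% in the 2 h libraries of run 2, against 19.7% and 20.6% untreated. The part of these values in the difference was not tested.

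**Figure D3:**
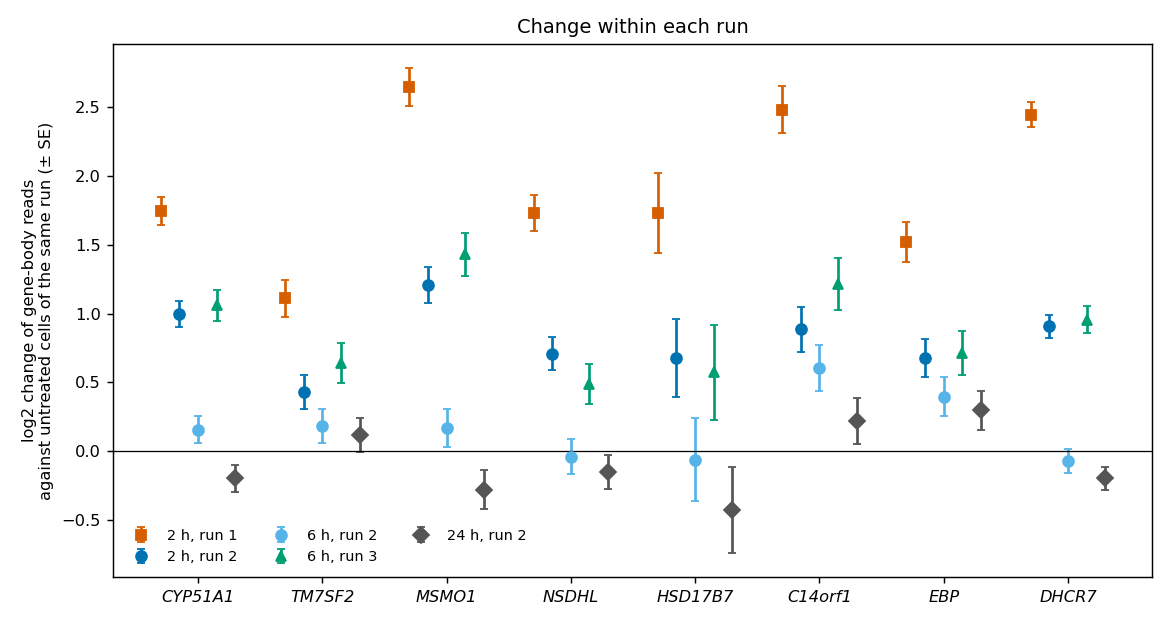
Log2 change of gene-body reads against the untreated libraries of the same run (vertical axis, ± SE) for each of the 8 late sterol genes, with a point for each time and run. The run 1 values at 2 h are the highest in all 8 genes, and the run 2 values lie between 0.43 and 1.21 at 2 h, -0.072 and 0.60 at 6 h, and -0.43 and 0.30 at 24 h.

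At 6 h all 8 genes were higher in value than untreated cells in the model, but fewer passed the test than at 2 h. C14orf1 (1.07 ± 0.25, adjusted p = 0.00742), MSMO1 (0.85 ± 0.26, 0.0278), EBP (0.64 ± 0.15, 0.00863), CYP51A1 (0.60 ± 0.16, 0.0153) and TM7SF2 (0.45 ± 0.13, 0.0267) rose, so 5 of 8 in a fit where 13.5% of transcripts rose. DHCR7 (0.51 ± 0.24, adjusted p = 0.131), HSD17B7 (0.34 ± 0.26, 0.371) and NSDHL (0.30 ± 0.17, 0.216) were higher in value but not called. The median was 0.56, beside 0.012 over all transcripts. The authors' deposited table also called 5 of 8 as higher at 6 h, where 13.9% of its transcripts were, with MSMO1 at 0.79 and an adjusted p of 0.0394.

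The 6 h rise was mostly that of run 3. MSMO1 held 72.3 and 92.7 CPM at 6 h in run 3, against 30.6 untreated, and 28.0 and 27.6 at 6 h in run 2, against 24.2 and 25.4 untreated. DHCR7 held 106 and 106 CPM at 6 h in run 3, against 54.6 untreated, and 44.1 and 45.1 in run 2, against 47.8 and 46.0 untreated. In both genes the 6 h libraries of run 3 were far above the untreated one, and those of run 2 lay within 4 CPM of the untreated ones. C14orf1 was above untreated cells in both runs, with 21.9 and 23.9 CPM in run 3, against 9.85, and 13.1 and 13.8 in run 2, against 9.06 and 8.66.

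Fitted within runs, 7 of 8 rose at 6 h in run 3, where 7.52% of transcripts rose, with a median of 0.83, and 1 of 8 rose in run 2, where 11.8% of transcripts rose, with a median of 0.16. The gene called in run 2 was C14orf1 (0.60 ± 0.17, adjusted p = 0.0201), and the gene not called in run 3 was HSD17B7 (0.57 ± 0.34). The 6 h change was larger in run 3 for all 8, and the difference passed the test for MSMO1 (1.26 ± 0.21), DHCR7 (1.03 ± 0.13) and CYP51A1 (0.91 ± 0.15), so 3 of 8, where 0.378% of transcripts were larger in run 3. All untreated values of run 3 come from a single library, which the test assumes to vary like the other groups. Without that library 0 of 8 rose at 6 h, where 7.68% of transcripts rose, and with run 3 left out 0 rose, where 6.8% did. In run 2 alone 2 rose, where 20.6% did, and with run 1 left out 5 rose, where 19.3% did. The difference was called for 1 gene when any of the 0 h or 6 h libraries of run 2 was left out.

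At 24 h levels lay close to those of untreated cells of run 2, the run that holds this time. CYP51A1 held 24.9 and 25.5 CPM at 24 h, against 29.3 and 28.5 untreated in run 2, and MSMO1 held 19.9 and 20.9, against 24.2 and 25.4. DHCR7 held 42.8 and 39.0, against 47.8 and 46.0. These 3 genes were below both untreated libraries of the same run, while C14orf1 (11.4 and 9.24, against 9.06 and 8.66), EBP (14.9 and 14.8, against 12.7 and 11.4) and TM7SF2 (54.3 and 52.6, against 51.6 and 46.5) were above both. Among all transcripts 36.1% were below and 37.2% above both untreated libraries in this way. NSDHL (31.6 and 26.7, against 34.4 and 30.1) and HSD17B7 (7.19 and 4.35, against 6.94 and 8.66) overlapped with untreated cells.

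In the model 0 of 8 were called at 24 h, where 19.8% of transcripts were called, and DESeq2 also called 0 of 8. EBP alone of the 8 had an unadjusted p under 0.05 (log2 change 0.51 ± 0.19, adjusted p = 0.0684 in edgeR). Of all 10304 transcripts, between 2427 and 3731 were under that unadjusted value. The model's median was 0.21 with 7 of 8 higher, but within run 2, which holds all the 24 h libraries, the median was -0.17 with 3 higher and 5 lower and 0 of 8 called, where 24.5% of transcripts were. CYP51A1, MSMO1, NSDHL and DHCR7 had opposite signs in the 2 fits, and the other 4 genes had the same sign in both. Run 2 alone called MSMO1 as lower (-0.28, adjusted p = 0.0322), in a fit that called 43.2% of transcripts.

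Set against 2 h directly, the genes were lower at both later times. At 24 h all 8 were lower in value than at 2 h, by a median log2 difference of -1.20, and 4 of 8 fell, where 1.05% of transcripts fell and 4.08% were called: MSMO1 (-1.76 ± 0.34, adjusted p = 0.0105), DHCR7 (-1.43 ± 0.31, 0.0227), CYP51A1 (-1.32 ± 0.21, 0.00299) and NSDHL (-1.07 ± 0.22, 0.0164). In run 2 alone 8 of 8 fell, where 9.73% of transcripts fell, and with run 1 left out 6 fell, where 3.08% did. With 24 h A or 24 h B left out 0 of 8 fell, where 0.0873% and 0.0582% of transcripts did. At 6 h all 8 were again lower in value than at 2 h, and 2 fell, CYP51A1 (-0.80 ± 0.19, adjusted p = 0.0471) and NSDHL (-0.89 ± 0.20, 0.0434), where 0.573% of transcripts fell and 1.58% were called. That count was 0 to 2 with single libraries left out, 2 with run 1 left out, where 1.39% of transcripts fell, and 6 in run 2 alone, where 8.26% did.

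Near the promoters, where polymerase pauses before it enters the gene body, the genes split. At 2 h 5 of 8 rose, where 2.43% of 9980 transcripts rose and 4.61% were called: MSMO1 (1.44 ± 0.24, adjusted p = 0.00341), HSD17B7 (1.31 ± 0.34, 0.0330), CYP51A1 (1.21 ± 0.26, 0.0132), C14orf1 (1.18 ± 0.28, 0.0218) and DHCR7 (1.11 ± 0.23, 0.0108). NSDHL (0.29 ± 0.22, 0.481), TM7SF2 (0.083 ± 0.22, 0.875) and EBP (-0.49 ± 0.20, 0.165) were not called. All 8 genes passed the filter on low counts in this region.

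MSMO1 shows the pattern by library, with 50.3 and 48.1 promoter-proximal CPM at 2 h in run 2 and 125 in run 1, against 30.8 and 28.9 untreated in run 2, 26.3 and 24.5 in run 1 and 61.7 in run 3. Within each run the 2 h values were higher, but the untreated library of run 3 was above both 2 h libraries of run 2. EBP went the other way within runs, with 47.3 and 76.3 CPM at 2 h in run 2, against 93.5 and 113 untreated, and 63.3 at 2 h in run 1, against 76.3 and 76.0. Its untreated library of run 3 held 35.8, below all of these.

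The promoter-proximal calls were less stable than those in gene bodies. Without the 2 h library of run 1, 0 of 8 were called at 2 h. Without 2 h A of run 2, 3 were, where 137 transcripts were called. Over all single libraries left out in turn, 137 to 724 transcripts were called. With run 1 left out 2 rose, MSMO1 (0.83) and DHCR7 (1.02), where 2.42% of transcripts rose. With no run term 0 were called, but that setting called only 6 of all transcripts. With libraries scaled by their gene-body reads 0 were called as well. The authors' deposited table called 0 of 8 near promoters at 2, 6 and 24 h, where 0.757%, 0.903% and 0.376% of its transcripts were called. At 6 h and 24 h, 0 of 8 were called in edgeR, where 2.24% and 1.41% of transcripts were, with 3 and 4 of 8 at an unadjusted p under 0.05. Of all 9980 transcripts, between 1234 and 1659 at 6 h and at least 1500 at 24 h were under that value. DESeq2 called 1 at 6 h, DHCR7, and the alternatives other than single libraries called 58 to 938 of all transcripts then.

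**Figure D4:**
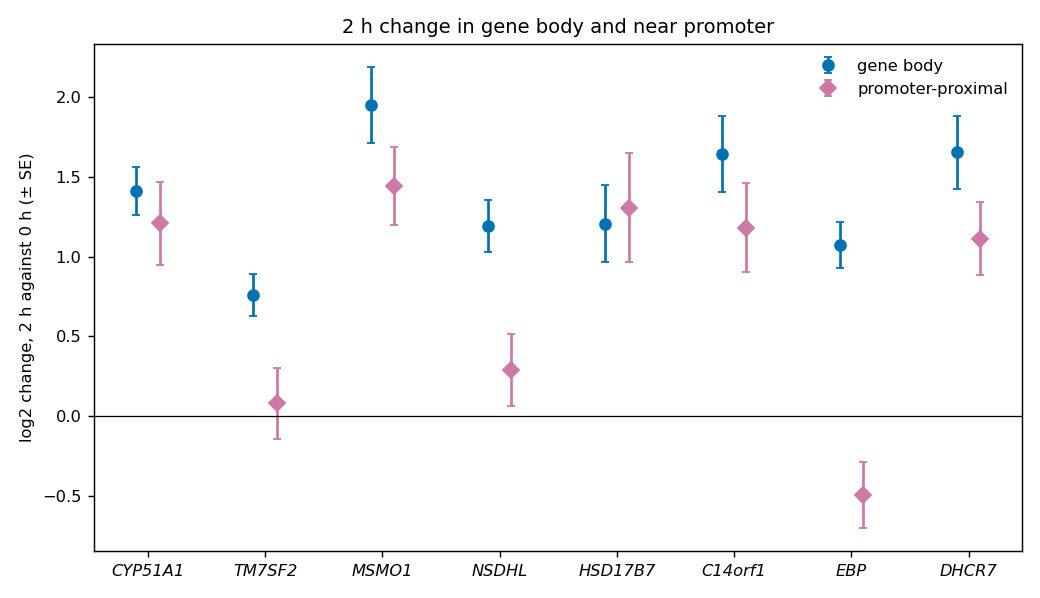
Log2 change at 2 h against 0 h (vertical axis, ± SE) in gene bodies and promoter-proximal regions for each of the 8 late sterol genes. Gene-body values lie from 0.76 to 1.95, while promoter-proximal values lie above 1 in 5 genes, near 0 in TM7SF2 and at -0.49 in EBP.

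In EBP the balance between the regions changed. The promoter-proximal minus gene-body change, computed per library on the log2 scale with a prior count of 2 and tested with limma, was -1.55 ± 0.22 for EBP at 2 h (adjusted p = 0.00645), so 1 of 8 fell, where 0.762% of transcripts fell and 1.17% were called. NSDHL (-0.86 ± 0.29, adjusted p = 0.147), TM7SF2 (-0.68 ± 0.22, 0.137) and MSMO1 (-0.54 ± 0.22, 0.217) were lower in value, and HSD17B7 was at 0.027. EBP stayed called with each library left out in turn, at -1.72 to -1.41 and an adjusted p of at most 0.0461. It was not called without the run term, where only 2 of all transcripts were called. With run 1 left out it was also called (-1.41, adjusted p = 0.0284), in a setting chosen after seeing the data. At 6 h and 24 h limma called 0 of 8, where 0.401% and 0.271% of transcripts were called, with 2 of 8 at an unadjusted p under 0.05 each time. Of all 9980 transcripts, between 974 and 1503 at 6 h and between 865 and 1347 at 24 h were under that value.

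As a share of the reads of EBP, promoter-proximal reads made up 24.3% (95% Wilson interval 19.9 to 29.3) and 39.5% (35.3 to 43.8) at 2 h in run 2, against 64.1% (60.0 to 68.0) and 72.1% (67.7 to 76.0) untreated. In run 1 they made up 29.5% (27.2 to 31.9) at 2 h, against 46.9% (42.6 to 51.3) and 49.8% (45.9 to 53.7) untreated. The EBP share was thus lower at 2 h in each library of both runs. At 6 h it was 19.7% (16.9 to 22.9) and 18.1% (15.6 to 21.0) in run 3, against 29.7% (25.1 to 34.7) in the untreated library. Intervals cover counting error only, since the reads carry no stated molecular identifiers.

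The direction of the share differed between the runs. The number of all transcripts with a lower share was not computed, so the counts below are not results about the 8 genes. The mean share at 2 h was below the untreated mean in 8 of 8 genes in run 2, and in 3 of 8, NSDHL, EBP and DHCR7, in run 1. At 6 h it was below in 6 of 8 in run 2 and 8 of 8 in run 3, and at 24 h in 3 of 8. The promoter-proximal percentage of all reads moved the same way at 2 h, lower than untreated in run 2 and higher in run 1 as given above, and in run 3 it was 11.4% and 12.3% at 6 h, against 13.0% untreated. Its part in the shares of single genes was not tested.

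**Figure D5:**
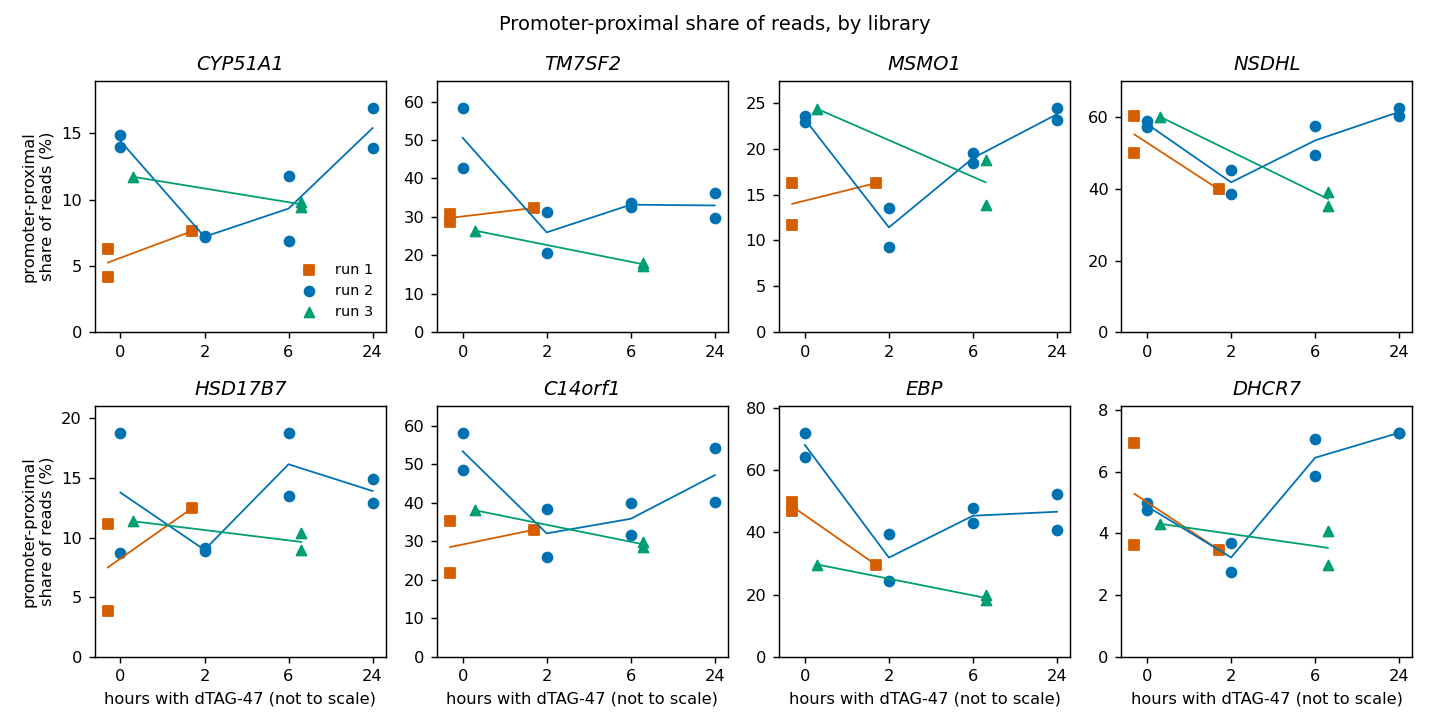
Promoter-proximal reads as a percentage of each gene's promoter-proximal and gene-body reads (vertical axis, from 0) by library, against hours with dTAG-47 (not to scale), coloured by run with lines through run means. By run means EBP, NSDHL and DHCR7 are lower at 2 h in both runs 1 and 2, and the other 5 genes are lower in run 2 and higher in run 1. At 2 h EBP is at 24.3% to 39.5%, a range that holds its untreated library of run 3 at 29.7%. NSDHL, at 38.5% to 45.2%, is below all its untreated libraries.

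Most other measured genes of the sterol pathway rose at 2 h as well. Of a list of 32 other sterol genes, also chosen with earlier results of these data known, 26 were measured. At 2 h 18 of them rose, 3 fell and 5 did not pass the test (median log2 change 0.86), in the fit where 19.7% of all transcripts rose and 18.9% fell. Among enzymes outside the 8, LSS (1.35 ± 0.23), which makes lanosterol, SQLE (1.34 ± 0.21), which makes its precursor epoxide, and SC5DL (0.81 ± 0.15), a sterol desaturase, rose. LBR, the nuclear envelope protein with the same reductase activity as TM7SF2, fell (-0.19 ± 0.062, adjusted p = 0.0284). The genes with the smallest adjusted p at 2 h were MVK (2.21 ± 0.29), mevalonate kinase, HMGCS1 (1.99 ± 0.27), which makes HMG-CoA, INSIG1 (1.59 ± 0.21) and MYLIP (-1.16 ± 0.14), the ligase that targets the LDL receptor for degradation.

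At 6 h 9 of the 26 rose and 2 fell, where 13.5% of transcripts rose and 13.4% fell, with NPC2 (0.78 ± 0.19) and NPC1 (0.44 ± 0.11), which move cholesterol out of lysosomes, and STARD4 (0.73 ± 0.20), a sterol carrier, among those that rose and MYLIP (-0.77 ± 0.13) among those that fell. At 24 h, where 10.8% of transcripts rose and 9.08% fell, 2 rose, NPC2 (0.75 ± 0.23) and NPC1 (0.40 ± 0.13), and 1 fell, MBTPS2 (-0.46 ± 0.11), a protease that processes SREBPs. Within run 2 the list had a median of 0.42 at 2 h, -0.043 at 6 h and -0.28 at 24 h. Their 2 h change was larger in run 1 in 18 of 26 by the test of the difference, where 13.8% of transcripts were, and their 6 h change larger in run 3 in 11, where 0.378% were.

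The 8 genes also tracked each other across the treated libraries. Measured as the log2 CPM difference from the untreated mean of the same run, the mean over the 8 was 1.93 at 2 h in run 1, 0.79 and 0.83 at 2 h in run 2, 0.78 and 0.96 at 6 h in run 3, 0.18 and 0.15 at 6 h in run 2, and 0.0032 and -0.16 at 24 h. Over these 9 libraries each gene correlated with the mean of the other 7 at a Pearson r of 0.93 (TM7SF2) to 0.99 (DHCR7), a description with no test since libraries of a run share their untreated baseline. The other transcripts most like that mean were SQLE (0.994), CLCN6 (0.987), MVK (0.986), INSIG1 (0.986) and HLA-F-AS1 (0.986).

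Of 5 measured genes within 2 kb of the 8, 1 rose and 1 fell at 2 h, where 19.7% of all transcripts rose and 18.9% fell. AKAP9, whose listed span ends 1476 bases from that of CYP51A1, fell at 2 h (-0.45 ± 0.082, adjusted p = 0.00134) where CYP51A1 rose. C11orf2 (-0.042 ± 0.098) and ZNHIT2 (0.40 ± 0.39), 161 and 168 bases from TM7SF2, were not called at 2 h. TTLL5, 13 bases from C14orf1, was not called at 2 h (0.12 ± 0.052, adjusted p = 0.0739) and rose at 6 h (0.20 ± 0.052, 0.0126). PORCN, which modifies Wnt proteins and ends 962 bases from EBP, rose with it at 2 h (0.78 ± 0.15, adjusted p = 0.0017) and 6 h (0.63 ± 0.15, 0.00929). RefSeq also places CYP51A1-AS1 over CYP51A1 and DHCR7-DT over DHCR7, and since no source used here gives the strand counted, reads of such pairs cannot be told apart.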

How the data were processed

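PRO-seq counts of 14 tagged libraries were taken from the authors' deposited tables, 3 times by 2 regions, which hold raw read counts per RefSeq transcript in gene bodies and promoter-proximal regions. Per the submitters' processing notes, hg19 was the assembly, and Bowtie2 2.2.2, Trimmomatic 0.32, DESeq2, DESeq, HOMER and SAMtools were used. No source used here gives the counting windows, the strand counted or any earlier filter. The authors' deposited tables also give log2 fold changes and adjusted p-values from DESeq2, which are printed only where named. Of the columns, 84 with normalized values were not used, and the parental line was not analysed here. Count columns carry the time, a letter and a run code, so libraries are named by these.

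The analysis used edgeR 4.0.16 and limma 3.58.1 under R 4.3.3, with edgeR's default expression filter by time (10304 transcripts tested in gene bodies, 9980 near promoters), TMM scaling, and a quasi-likelihood model with terms for time and run over all libraries, adjusted by the Benjamini-Hochberg method with a threshold of 0.05. A model with a mean for each run and time gave the changes within runs and the tests between runs. Promoter-proximal minus gene-body change was tested with limma on log2 CPM (prior count 2). Tests were two-sided, and were tested on simulated data. DESeq2 1.42.0 and other settings were alternatives. The 8 genes, the marker list and the list of other sterol genes were chosen with earlier results of these data known. All 8 are named, with up to 4 other sterol genes per time by smallest adjusted p, listed sterol enzymes from squalene onward outside the 8 (1 gene that this rule gives is not reported here), measured neighbours within 2 kb and the 5 transcripts most like the mean of the 8.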

Additional observations from a re-analysis of the deposited data

Results flagged for a closer look

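The 2 h gene-body change was larger in run 1 than in run 2 by a test of the difference in 7 genes, by a log2 difference of 1.60 in C14orf1, 1.54 in DHCR7, 1.44 in MSMO1, 1.02 in NSDHL, 0.84 in EBP, 0.75 in CYP51A1 and 0.68 in TM7SF2 (edgeR, adjusted p of 0.017 or less). The 6 h gene-body change was larger in run 3 than in run 2 by 1.26 in MSMO1, 1.03 in DHCR7 and 0.91 in CYP51A1 (adjusted p of 0.0172 or less). The 2 h value of run 1 and the untreated value of run 3 are a single library each, assumed in these tests to vary like the other groups.

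In promoter-proximal reads of MSMO1 the untreated library of run 3 held 61.7 CPM, far from the nearest other untreated library at 30.8, with the lowest at 24.5. This was 1 of 32 groups of libraries examined in this way, where chance marks about 1 in 20.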

How the results depend on the processing

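A block for each run and letter (a replicate block, chosen after seeing the data) called 8 of 8 genes in gene bodies at 2 h, 3 at 6 h, 0 at 24 h, 3 for 24 h minus 2 h and 0 for 6 h minus 2 h, 3 near promoters at 2 h and 1 at 6 h, and 1, EBP, for the promoter-proximal minus gene-body change at 2 h. No source used here says that a letter pairs libraries, and over 10304 transcripts the A minus B differences of run 2 correlated between times at r = -0.0679 to 0.129. At 2 h 7 or 8 of the 8 genes rose in gene bodies under all alternatives tried. Those other than single libraries called 1365 to 4125 of all transcripts then. Counts of called genes that changed with the setting are given next. In gene bodies 1 was called at 24 h in run 2 alone (MSMO1, reversed to -0.28), where 4447 of all transcripts were. At 6 h 2 were called in run 2 alone, where 4383 of all transcripts were, and 0 with run 3 left out, where 1470 were. For 24 h minus 2 h the counts were 0 with no run term (48 of all transcripts), 8 in run 2 alone (2309) and 7 with only the groups compared. For 6 h minus 2 h they were 0 with no run term (0 of all transcripts) and 6 in run 2 alone (1707). They were 1 with run 3 left out, and 4 with DESeq2 or with only the groups compared. Near promoters at 2 h they were 0 with no run term (6 of all transcripts) or gene-body library scaling, and 3 in run 2 alone (1682). In run 2 alone EBP was lower (-0.71). The count was 2 with run 1 left out, a minimum mean count of 100 or only the groups compared. Near promoters 1 was called at 24 h in run 2 alone, where 1430 of all transcripts were, and at 6 h with run 1 left out or with DESeq2. For promoter-proximal minus gene-body change 0 were called at 2 h with no run term, where 2 of all transcripts were. At 24 h in run 2 alone, a setting also chosen after seeing the data, 1 was called, DHCR7, where 610 of all transcripts were. Where no count of all transcripts stands beside it, as for the replicate block, a count of the 8 genes describes the setting alone.

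Leaving out single libraries gave 7 to 8 genes in gene bodies at 2 h, 0 to 6 at 6 h, 0 to 1 at 24 h, 0 to 5 for 24 h minus 2 h and 0 to 2 for 6 h minus 2 h. Near promoters it gave 0 to 5 at 2 h, 0 to 1 at 6 h and 0 at 24 h, and 1 for the promoter-proximal minus gene-body change at 2 h. The run difference was called in 5 to 8 genes at 2 h and 1 to 3 at 6 h over the 12 libraries that could be left out, which are all but the single 2 h library of run 1 and the single untreated library of run 3. Except where counts over all transcripts are given below, these counts of the 8 genes describe the settings and are not results about the genes. The cause of these changes was not tested.

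Over all transcripts the alternatives other than single libraries called 1365 to 4125 in gene bodies at 2 h, 1470 to 4383 at 6 h and 1111 to 4447 at 24 h, the lowest with no run term, run 3 left out and no run term. Near promoters at 2 h they called 6 (no run term) to 1682 (run 2 alone). For 24 h minus 2 h in gene bodies the range was 48 (no run term) to 2309 (run 2 alone). For 6 h minus 2 h it was 0 (no run term) to 1707 (run 2 alone). The promoter-proximal minus gene-body change at 2 h was called in 2 (no run term) to 724 (run 2 alone). With single libraries left out, 1922 to 4265 transcripts were called in gene bodies at 2 h and 1545 to 3329 at 6 h. For 6 h minus 2 h the range was 0 to 220. Near promoters it was 137 to 724 at 2 h and 27 to 381 at 6 h, and 10 to 155 for the promoter-proximal minus gene-body change at 2 h.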
